A study of Mus musculus with 12 samples.

Results

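Bone marrow stem and progenitor cells that carried a human KDM6B transgene on top of Tet2 loss (the double lesion) were compared with cells that had lost Tet2 alone (Tet2 KO). The comparison used 6 of the 12 libraries of the study, chosen by the genotype label: double lesion 1, 2 and 3 and Tet2 KO 1, 2 and 3. It asks what the transgene goes with when Tet2 is already gone. All 6 libraries came from untreated C57BL/6 mice with Vav Cre and with Tet2 floxed on both alleles (Tet2 flox/flox). The double lesion genotype adds human KDM6B, driven by Vav, which acts in blood cells. Another 6 libraries served in a side-by-side comparison only: 3 of KDM6B OE, whose label names Vav human KDM6B and no Cre, and 3 of Vav Cre, which carries Cre and neither lesion. The sources used here do not give age, the number of transgenic lines, or whether a library is 1 mouse or a pool. The p-values therefore measure the spread between these libraries, which may be technical in part.

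The RNA came from sorted LSK cells, that is, cells without mature lineage antigens that carry Sca-1 and Kit, a fraction that holds the blood stem cells. KDM6B takes methyl groups off a lysine of histone H3 that Polycomb complexes methylate, and so acts against a silencing mark. TET2 oxidises methylcytosine in DNA, and its loss is a common early lesion in myeloid malignancy, chronic myelomonocytic leukemia among them. Immediate early genes, the largest group among the genes called here, are transcribed quickly after a signal without new protein synthesis, and many encode transcription factors or the feedback regulators that end the signal.

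Values are CPM, reads scaled by the authors to an effective library size, and differences are double lesion minus Tet2 KO on the log2(CPM + 1) scale with their standard error. Calls are genes with an adjusted p under 0.05 in limma. Reads on listed genes numbered 25102856 to 26263370 per double lesion library and 21935022 to 25365202 per Tet2 KO library, and 1 read was worth 0.0373 to 0.0463 CPM. Kit, which defines the sort, stood at 558 to 907 CPM in the double lesion and 512 to 859 CPM in Tet2 KO, and Ly6a, which encodes Sca-1, at 99.1 to 122 and 105 to 180 CPM. The T cell genes Cd3d and Cd3e stayed below 1 CPM throughout. Genes of the Y chromosome were present in double lesion 1 and 3 and Tet2 KO 1 (mean 58.2 to 67.5 CPM) and near 0 in the other 3 libraries (0.0994 to 0.302 CPM), so sex is unequal between the groups. Tet2 KO 2 had the highest sum of B cell genes, led by Jchain. Double lesion 1, followed by double lesion 2, had the highest sum of mast cell, basophil and eosinophil genes. Tet2 KO 2 and double lesion 1 also lay at an end of their group in other lists, given below with their values.

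Tet2, the deleted gene, was low in both groups. It was at 37.2, 35.1 and 26.5 CPM in double lesion 1, 2 and 3 and at 31.6, 24.9 and 24.1 CPM in Tet2 KO 1, 2 and 3, against 82.1 ± 15.5 CPM (SD, n = 3) in Vav Cre. The groups overlapped, and the double lesion mean was 123% of the Tet2 KO mean (exact two-sided permutation p = 0.2, where 0.1 is the smallest possible). Mouse Kdm6b, the counterpart of the transgene, was at 9.92, 12.3 and 9.30 CPM in the double lesion and 6.90, 5.46 and 5.77 CPM in Tet2 KO. Every double lesion library lay above every Tet2 KO library, at 174% of the mean (exact two-sided permutation p = 0.1), but the gene did not pass over all genes (0.71 ± 0.21, adjusted p = 0.204). The human transcript was not measured as such, and whether its reads were counted on the mouse gene was not tested. The other demethylases of the family did not pass: Kdm6a, on the X chromosome, was at −0.24 ± 0.23 (adjusted p = 0.651), and Uty is its Y-linked copy, present only in the libraries with a Y chromosome.

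Of 12666 genes tested, 53 were called, which is 0.418%. Of these, 47 were higher in the double lesion (0.371% of genes) and 6 were lower (0.0474%). A difference of 2-fold or more was reached by 36 higher and 2 lower genes. The groups did not overlap for any of the 53, and this also held for 21.9% of all genes; an unadjusted p under 0.05 was reached by 14.7% of all genes. In libraries of bulk RNA, fewer cells of a type and less RNA per cell cannot be told apart. On reads recovered from the values, edgeR called 46 genes and DESeq2 called 350. Leaving out 1 library changed the count, to 25, 16 and 26 without double lesion 1, 2 and 3, and 80, 104 and 33 without Tet2 KO 1, 2 and 3. Egr1, Fmnl3, Ccl4, Dusp2, Junb, Ier2, Nfkbiz and Ier5 kept their call in each of the 19 alternatives run.

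**Figure D1:**
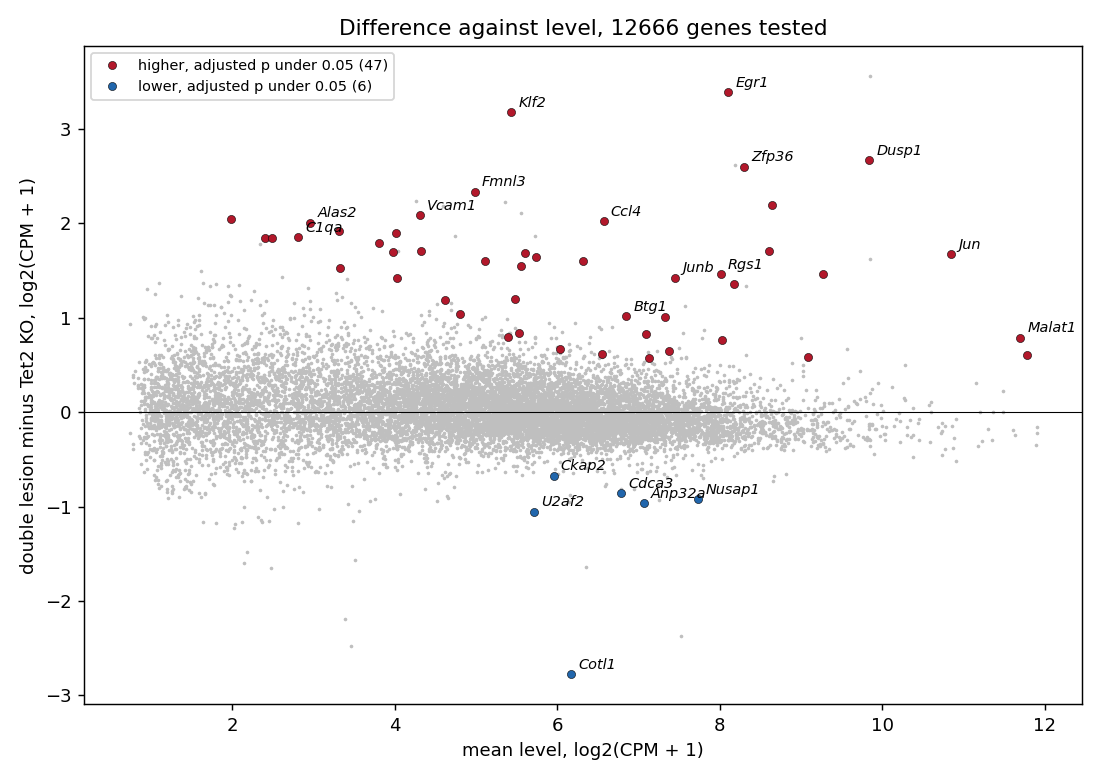
Each point is 1 of 12666 genes, placed by its mean level over both groups on the log2(CPM + 1) scale (horizontal axis) and by the difference, double lesion minus Tet2 KO, on the same scale (vertical axis). The 47 genes called higher in red reach from Jun and Malat1 at high levels to Alas2 and C1qa at low ones, and Cotl1 at −2.78 stands lowest among the 6 called lower in blue.

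Immediate early genes made up the largest group among the called genes. Of 33 members tested, 17 were higher and none was lower, all 33 values were positive against 49.3% of all genes, and the median difference was 1.36 against −0.0043 over all genes. The groups did not overlap for 25 of the 33, where 10.9% of all genes lay wholly higher. Summed over the list, the level was 9912, 14063 and 13385 CPM in double lesion 1, 2 and 3 and 2855, 4259 and 4816 CPM in Tet2 KO 1, 2 and 3, a ratio of means of 3.13. The low libraries were double lesion 1 and Tet2 KO 1: double lesion 1 was lowest of its group for 22 of the 33 genes and Tet2 KO 1 for 23. The count of 17 was 8 without double lesion 2 and 9 without double lesion 3, and between 13 and 20 without any 1 of the others. Without a filter on low values it was 5, and Klf2 (adjusted p = 0.192), Dusp1 (0.170), Zfp36 (0.0858), Klf6 (0.0726) and Jun (0.192) were among the calls lost.

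Among the transcription factors of this group, Egr1 and Klf2 had the largest called differences. Egr1, a zinc finger factor that answers growth signals (chr18:34859823-34864984, GRCm38), was at 429, 404 and 673 CPM in double lesion 1, 2 and 3 and at 38.3, 59.3 and 42.3 CPM in Tet2 KO 1, 2 and 3. The lowest double lesion value was several times the highest Tet2 KO value, and the difference was 3.39 ± 0.20 (adjusted p = 0.000119). It was 3.78 between the libraries with a Y chromosome (double lesion 1 and 3 against Tet2 KO 1) and 2.99 between those without (double lesion 2 against Tet2 KO 2 and 3). Klf2, a Krüppel-like factor linked to quiescence (chr8:72319033-72321656), was at 32.5, 101 and 97.8 CPM against 2.92, 8.38 and 11.3 CPM (3.18 ± 0.48, adjusted p = 0.0203). Its low values were those of double lesion 1 and Tet2 KO 1, and the groups stayed apart. Klf6, of the same family (chr13:5861482-5870394), was at 428, 801 and 740 CPM against 118, 163 and 137 CPM (2.19 ± 0.21, adjusted p = 0.00145).

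AP-1, the dimer of Jun and Fos proteins that binds many inducible enhancers, was represented by several subunits. Jun (chr4:95049034-95052222) was at 2421, 3158 and 2723 CPM in the double lesion and 542, 933 and 1269 CPM in Tet2 KO (1.67 ± 0.25, adjusted p = 0.0203). Junb (chr8:84974484-84978718), which antagonises Jun in growth control, was at 239, 262 and 260 CPM against 79.5, 106 and 97.2 CPM (1.42 ± 0.12, adjusted p = 0.000533). Its double lesion values agreed closely, and each was more than double any Tet2 KO value. Jund rose by 1.70 ± 0.19 (adjusted p = 0.00401). Fos itself had a large difference that did not pass: 716, 2256 and 2031 CPM against 32.8, 200 and 293 CPM gave 3.56 ± 0.69 (adjusted p = 0.0710). The groups did not overlap for Fos, but the libraries of each group spread by several times, and Fosb shared that pattern (2.18 ± 0.62, adjusted p = 0.188). Atf3, a stress-induced partner of Jun, passed at low levels, at 3.06, 5.40 and 7.82 CPM against 0.60, 0.0463 and 0.954 CPM (2.04 ± 0.36, adjusted p = 0.0462). The middle Tet2 KO value is 1 read, and Atf3 met the filter through the double lesion libraries alone. It is counted among the called immediate early genes all the same. Its call ended in 8 of 15 alternatives. Among them were a pseudocount of 0.25 (adjusted p = 0.0734), edgeR (0.114), the sex term (0.0786), all 12 libraries in the fit (0.173) and no filter (0.192). The orphan nuclear receptor gene Nr4a1 rose by 1.91 ± 0.31 (adjusted p = 0.0316), from 3.03 ± 0.777 to 14.9 ± 7.14 CPM (SD, n = 3).

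Feedback regulators that restrain signalling rose beside the transcription factors. Dusp1, a phosphatase that inactivates MAP kinases (chr17:26505590-26562128), was at 1102, 1782 and 1811 CPM in the double lesion and 116, 321 and 366 CPM in Tet2 KO (2.67 ± 0.37, adjusted p = 0.0119). Dusp2, a nuclear phosphatase of the same class (chr2:127336159-127338376), was at 444, 419 and 384 CPM against 160, 163 and 162 CPM (1.36 ± 0.09, adjusted p = 0.000132). The Tet2 KO libraries hardly differed for Dusp2, whereas for Dusp1 Tet2 KO 1 lay far below Tet2 KO 2 and 3. Dusp6, which acts on ERK, rose by 0.83 ± 0.13 (adjusted p = 0.0316). Zfp36, which marks AU-rich mRNAs for decay (chr7:28376784-28380253), was at 370, 605 and 636 CPM against 53.2, 97.3 and 120 CPM (2.60 ± 0.28, adjusted p = 0.00273). Among the remaining called members were the small early genes Ier2 (1.47 ± 0.13) and Ier5 (1.20 ± 0.13), the antiproliferative gene Btg2 (1.60 ± 0.22), the GTPase gene Rhob (1.68 ± 0.25) and the survival gene Mcl1 (0.76 ± 0.10). Their adjusted p-values lay between 0.00116 and 0.0210. Members that did not pass included Myc, at 0.36 ± 0.13 (adjusted p = 0.256), Ier3 (0.95 ± 0.18, adjusted p = 0.0664) and Klf10 (0.09 ± 0.16, adjusted p = 0.835).

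**Figure D2:**
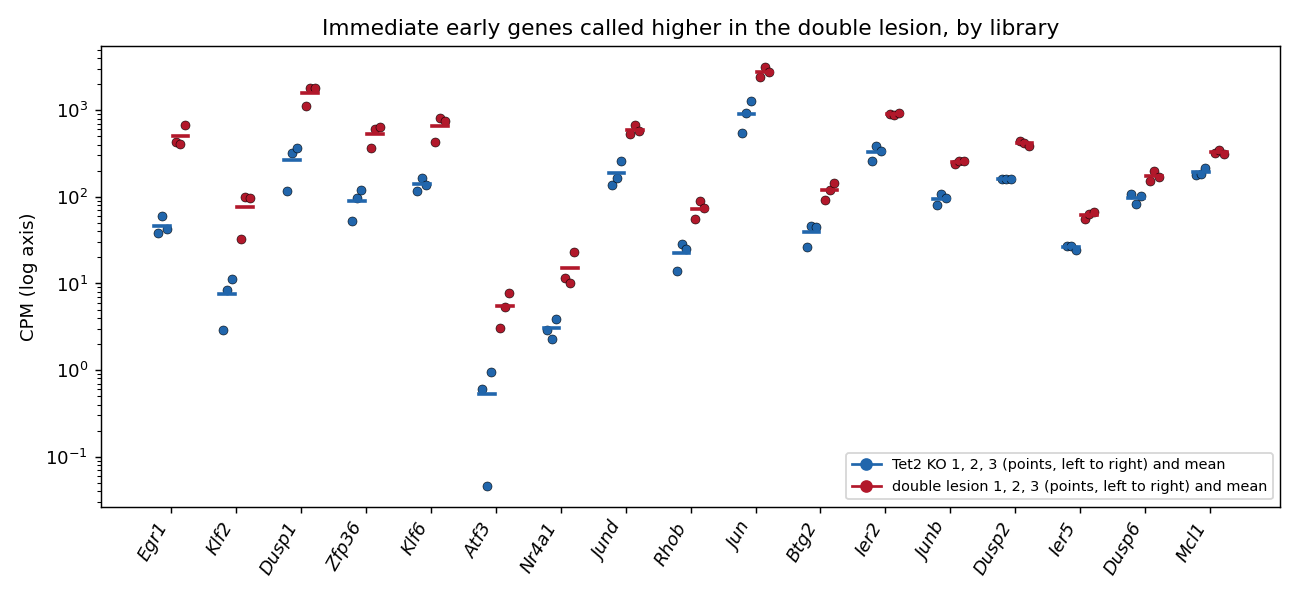
CPM on a log axis for the 17 immediate early genes called higher, with 1 point per library (Tet2 KO 1, 2 and 3 in blue, double lesion 1, 2 and 3 in red, left to right) and a bar at each group's mean, ordered by the log2 difference. For each gene every double lesion library lies above every Tet2 KO library, and for 13 of the 17 genes Tet2 KO 1 is the lowest of its group.

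The stretches before the transcription start of 4 called immediate early genes and of the mitotic gene Ckap2, which was lower, are shown as examples. They are RefSeq promoter sequence of GRCm38.p6, 5′ to 3′ on the strand of the gene, from 150 bases before the start until the start or the first base of an annotated exon. Capitals mark a match on either strand to a CCAAT box (CCAAT), an E-box (CACGTG) or a cyclic AMP response element (TGACGTCA). Junb (chr8:84978749-84978898, minus strand) and Ier5 (chr1:155099637-155099786, minus strand) were called in every alternative, and Dusp1 (chr17:26508520-26508622, minus strand) and Klf6 (chr13:5861339-5861481, plus strand) hold more than 1 kind of match. Ckap2 lies at chr8:22185820-22185969 on the minus strand. Stretches without a match, such as those of Jund and Klf2, are not shown.
Junb: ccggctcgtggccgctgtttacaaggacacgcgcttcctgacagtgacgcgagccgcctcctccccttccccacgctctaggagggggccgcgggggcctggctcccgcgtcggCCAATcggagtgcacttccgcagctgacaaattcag
Ier5: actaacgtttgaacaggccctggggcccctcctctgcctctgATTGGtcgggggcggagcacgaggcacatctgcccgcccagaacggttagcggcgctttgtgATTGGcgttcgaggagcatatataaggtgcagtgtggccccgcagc
Dusp1: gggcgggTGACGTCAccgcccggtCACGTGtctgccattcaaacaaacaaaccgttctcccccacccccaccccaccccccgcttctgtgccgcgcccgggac
Klf6: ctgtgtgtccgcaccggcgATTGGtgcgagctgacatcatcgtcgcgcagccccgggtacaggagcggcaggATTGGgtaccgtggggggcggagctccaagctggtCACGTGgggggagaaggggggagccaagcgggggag
Ckap2: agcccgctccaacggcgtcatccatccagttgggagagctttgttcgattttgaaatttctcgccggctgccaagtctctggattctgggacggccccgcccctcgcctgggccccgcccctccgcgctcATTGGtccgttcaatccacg
Of the 17 called immediate early genes, 15 have a single promoter window in RefSeq, 250 bases before to 50 after the start, as do 7699 of all genes tested. The CCAAT box was found in 8 of the 15 (53.3%) against 39.2% of all windows, the E-box in 3 (20.0% against 10.5%) and the cyclic AMP response element in 2 (13.3% against 3.33%). A CArG box, the site of serum response factor, was in 1 (6.67% against 1.30%), as was an NF-kB motif (6.67% against 4.99%). The AP-1 motif TGANTCA and an ETS motif were in none of the 15, against 4.71% and 10.3% of all windows. In the G2 and M phase list the CCAAT box was in 28 of 36 windows (77.8%). These shares describe letters in a window and were not tested.

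Outside that group, genes of innate immune signalling were called in small number. Ccl4, a chemokine that attracts monocytes and T cells (chr11:83662584-83664683), was at 128, 160 and 167 CPM in the double lesion and 31.5, 38.2 and 39.7 CPM in Tet2 KO (2.02 ± 0.14, adjusted p = 0.000132). Its neighbour Ccl3, which shares receptors with it (chr11:83647844-83649355), was at 70.8, 73.6 and 96.3 CPM against 23.4, 23.0 and 28.0 CPM (1.65 ± 0.15, adjusted p = 0.00116). Nfkbiz, a nuclear member of the IkB family, was at 42.5, 55.2 and 56.0 CPM against 14.4, 17.6 and 16.5 CPM (1.60 ± 0.16, adjusted p = 0.00217). These 3 were the only called members of 35 in the NF-kB and innate immune list, where 0.371% of all genes were called higher. The median of the list was 0.14, and 26 of the 35 values were positive, against 49.3% of all genes. In the double lesion 12 members lay wholly higher and none wholly lower, where 10.9% and 11% of all genes did. An unadjusted limma p under 0.05 was reached by 10, all higher, where 14.7% of all genes reached it in either direction. The NF-kB subunits and inhibitors did not pass: Rela was at 0.34 ± 0.13 (adjusted p = 0.267), Nfkb1 at 0.08 ± 0.10 (adjusted p = 0.734) and Nfkbia at 0.12 ± 0.13 (adjusted p = 0.670), and Tnf was at 1.05 ± 0.28 (adjusted p = 0.176). None of 50 interferon response genes passed in limma, edgeR or DESeq2, 7 had an unadjusted p under 0.05, and 40 of the 50 values were negative (median −0.16).

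Genes typical of tissue macrophages were higher in the double lesion. The complement subunits C1qa, C1qb and C1qc, made by resident macrophages, lie side by side on chromosome 4. C1qb was at 24.6, 29.4 and 15.6 CPM in double lesion 1, 2 and 3 and 7.33, 7.55 and 4.29 CPM in Tet2 KO 1, 2 and 3 (1.70 ± 0.28, adjusted p = 0.0318). C1qc was at 25.5, 22.8 and 14.1 CPM against 6.43, 3.61 and 5.69 CPM (1.79 ± 0.27, adjusted p = 0.0210). C1qa, the lowest of the 3, rose by 1.85 ± 0.31 (adjusted p = 0.0340). Double lesion 3 was the lowest of its group for each, yet it lay above every Tet2 KO library. C1qb differed by 1.30 between the libraries with a Y chromosome and by 2.18 between those without. Vcam1, an adhesion molecule of macrophages and stroma (chr3:116109949-116129688), was at 39.5, 33.3 and 21.0 CPM against 6.60, 5.93 and 6.64 CPM (2.08 ± 0.24, adjusted p = 0.00393). Mrc1, the mannose receptor, rose by 1.84 ± 0.26 (adjusted p = 0.0135) and Fcna, a ficolin, by 1.90 ± 0.25 (adjusted p = 0.0100).

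In the monocyte and macrophage marker list these made 5 of 23 members (Fcna is not in it), with a median of 0.22. Other members were level or lower without passing, among them Lyz2 (−0.15 ± 0.11, adjusted p = 0.531), Csf1r (0.24 ± 0.44, adjusted p = 0.831), Mpeg1 (−0.66 ± 0.17, adjusted p = 0.158) and the monocyte receptor Cx3cr1 (−1.16 ± 0.34, adjusted p = 0.199). Its summed level overlapped between the groups, at 1077 to 1518 CPM in the double lesion and 981 to 1558 CPM in Tet2 KO. A list of marrow macrophage genes drawn up after these calls were seen, and so no independent evidence, had 6 of 17 called and all 17 positive. Its summed level was 300.0, 290.0 and 228 CPM against 152, 108 and 134 CPM. In it Siglec1 stayed below 1 CPM in all 6 libraries, and Cd163 (0.08 ± 0.20, adjusted p = 0.888) and Spic (0.34 ± 0.22, adjusted p = 0.490) did not pass. The part of such cells in the other differences was not tested. The 6 calls fell to 1 without double lesion 1 or without double lesion 2, to 2 without Tet2 KO 3, and to 0 with all 12 libraries in the fit (adjusted p from 0.0637 to 0.210).

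Markers of other blood cells gave 1 call outside the macrophage and erythroid lists. Among mast cell, basophil and eosinophil genes only Alox15, a lipoxygenase of eosinophils and resident macrophages, passed (1 of 18), at 6.83, 11.8 and 5.10 CPM against 1.63, 1.20 and 1.27 CPM (1.84 ± 0.30, adjusted p = 0.0318). Epx and Prg2, eosinophil granule genes, were led by double lesion 1 and their groups overlapped: Prg2 was at 2917, 980 and 374 CPM against 127, 707 and 411 CPM (adjusted p = 0.326). For Ccr3, of the same list, the groups stayed apart, at 5.71, 4.42 and 4.75 CPM against 1.76, 1.81 and 1.31 CPM (1.18 ± 0.24, adjusted p = 0.0926). Of the 18 values 14 were positive, against 49.3% of all genes. An unadjusted p under 0.05 was reached by 7, all higher, where 14.7% of all genes reached it in either direction. None of 17 B cell genes passed in limma, edgeR or DESeq2 (2 with an unadjusted p under 0.05). Jchain, the joining chain of secreted antibodies, was at 513, 856 and 1555 CPM in the double lesion and 715, 7522 and 377 CPM in Tet2 KO. The high value of Tet2 KO 2 recurred in Cd79a (49.8 CPM against 3.26 to 16.8 CPM in the other 5 libraries) and Pou2af1 (40.6 CPM against 2.03 to 10.6 CPM). Without Tet2 KO 2 the calls were 104, and 52 of the 53 were among them.

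**Figure D3:**
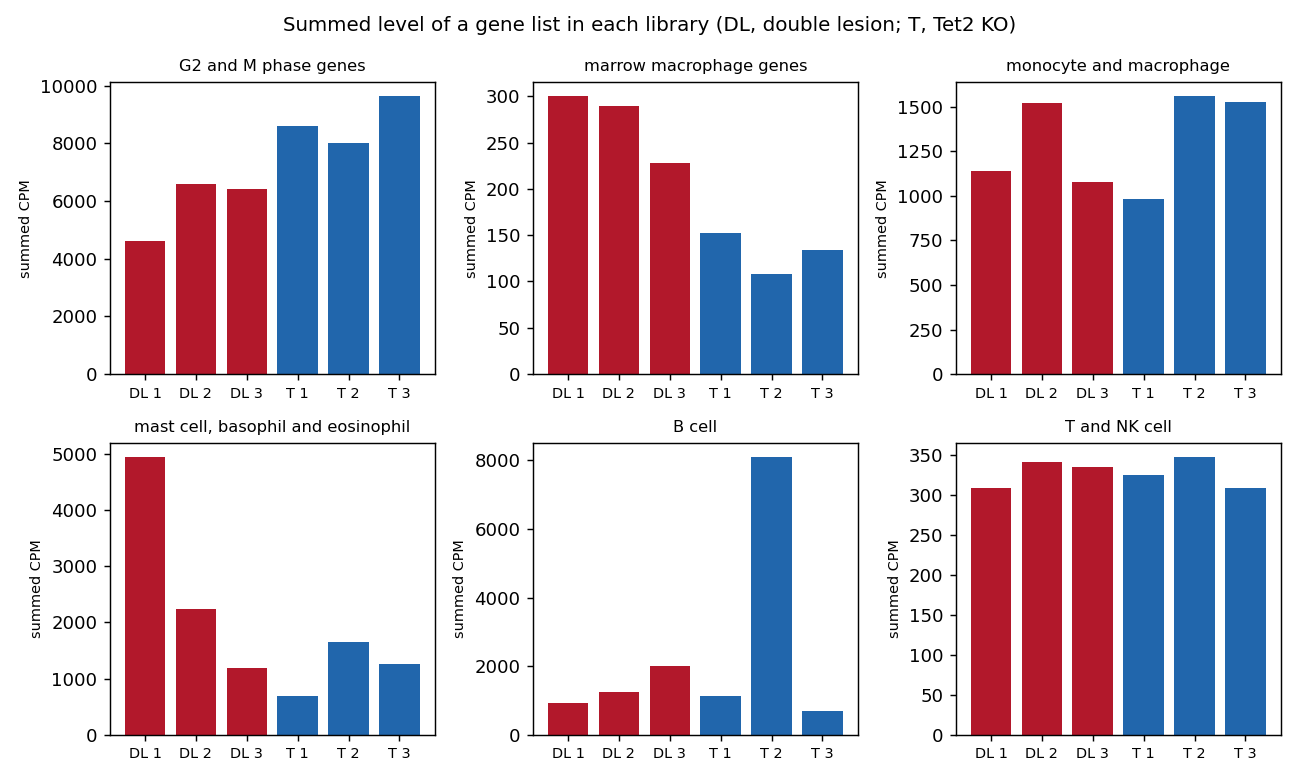
Bars give the summed CPM of a gene list in each of the 6 libraries (DL, double lesion in red; T, Tet2 KO in blue), each panel with its own axis from 0. The G2 and M phase genes are lower in every double lesion library (4624 to 6590 against 7995 to 9629 CPM) and the marrow macrophage genes higher, while the mast cell, basophil and eosinophil genes are highest in DL 1 (4942 CPM), then DL 2 (2235 CPM), and the B cell genes in T 2.

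Among called genes of no common group, the formin gene Fmnl3, which remodels actin (chr15:99317225-99370482), was at 61.5, 47.1 and 47.3 CPM in the double lesion and 10.8, 9.35 and 8.19 CPM in Tet2 KO (2.34 ± 0.18, adjusted p = 0.000287). Alas2, the erythroid enzyme that starts heme synthesis (chrX:150547375-150570638), was at 10.3, 9.85 and 14.4 CPM against 1.76, 1.71 and 2.86 CPM (2.01 ± 0.25, adjusted p = 0.00758). Alas2 moved apart from its lineage: it was the only called gene of 15 in the erythroid list, and Gata1 (−0.48 ± 0.32, adjusted p = 0.501) and Klf1 (−0.57 ± 0.34, adjusted p = 0.449), which drive red cell development, had negative values. Rgs1, a brake on chemokine receptor signalling, was at 313, 414 and 402 CPM against 110, 184 and 122 CPM (1.46 ± 0.18, adjusted p = 0.00688). Sik1 and Per1, genes that respond to cyclic AMP, rose by 1.42 ± 0.22 (adjusted p = 0.0265) and 1.53 ± 0.27 (adjusted p = 0.0494), and Spry1, an inhibitor of receptor tyrosine kinase signalling, by 1.18 ± 0.19 (adjusted p = 0.0326). The antiproliferative gene Btg1 (1.02 ± 0.17), the glucose transporter gene Slc2a3 (0.67 ± 0.12) and Mfng, which modifies Notch receptors (0.62 ± 0.11), also passed, with adjusted p-values of 0.0340, 0.0444 and 0.0477.

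Genes of cholesterol synthesis and uptake are a list added after earlier values were seen, and so no independent evidence. Of its 25 members tested 1 was called. Positive values were found for 22, against 49.3% of all genes, and the median was 0.42. In the double lesion 15 members lay wholly higher, where 10.9% of all genes did. Members that did not pass include Insig1, a sterol sensor (1.08 ± 0.26, adjusted p = 0.128), and the synthesis enzymes Cyp51 (0.90 ± 0.17, adjusted p = 0.0695) and Sqle (0.88 ± 0.18, adjusted p = 0.0886).

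Long noncoding and abundant transcripts were also among the higher genes. Malat1, a nuclear RNA, was at 3901, 4145 and 4595 CPM against 2413, 2537 and 2360 CPM (0.79 ± 0.11, adjusted p = 0.0102). Neat1, the scaffold of paraspeckles, was at 221, 207 and 211 CPM against 105, 85.7 and 130 CPM (1.01 ± 0.14, adjusted p = 0.0119). H3f3b, which encodes the histone variant H3.3 (0.60 ± 0.11), the linker histone gene Hist1h1c (0.84 ± 0.15) and the chaperone gene Dnajb1 (0.65 ± 0.10) passed with small differences. The adjusted p-values of these 3 lay between 0.0203 and 0.0496. H3f3b and Hist1h1c have close copies in the genome, so their counts are uncertain. Dnajb1 was the only called member of 16 heat-shock chaperones, whose median was 0.06. Exons on the opposite strand overlap Junb, Jund, Jun, Dusp1, Zfp36, Vcam1, Fcna, Alas2, Malat1, Spry1, Zgpat, Nusap1 and Particl and the clone 2410002F23Rik. The library kit does not mark strand, so reads of these genes and of their antisense partners cannot be told apart.

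Lower genes were few. Cotl1, an actin-binding protein that also chaperones 5-lipoxygenase (chr8:119809222-119840544), was at 15.0, 17.1 and 16.0 CPM in the double lesion and 80.5, 206 and 92.9 CPM in Tet2 KO (−2.78 ± 0.29, adjusted p = 0.00220). The double lesion libraries were close to each other while Tet2 KO 2 was more than double the other Tet2 KO libraries, and the call ended with all 12 libraries in the fit (adjusted p = 0.185) and without a filter on low values (0.0857). U2af2, the large subunit of the splicing factor that binds the polypyrimidine tract (chr7:5062143-5079938), was at 29.9, 34.0 and 35.2 CPM against 64.6, 74.7 and 69.7 CPM (−1.05 ± 0.13, adjusted p = 0.00538), a call that also ended with all 12 libraries (adjusted p = 0.124). It was the only called gene of 35 splicing factors, whose median was 0.00077. Anp32a, a histone chaperone and phosphatase inhibitor, was at 80.2, 92.7 and 94.9 CPM against 150, 215 and 165 CPM (−0.96 ± 0.14, adjusted p = 0.0160).

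The other 3 lower genes belong to mitosis. Cdca3, which promotes mitotic entry (chr6:124829547-124833701), was at 64.4, 81.0 and 88.4 CPM against 129, 152 and 143 CPM (−0.86 ± 0.13, adjusted p = 0.0217). Nusap1, which bundles spindle microtubules (chr2:119618298-119651244), was at 108, 159 and 177 CPM against 274, 255 and 300 CPM (−0.92 ± 0.16, adjusted p = 0.0489). Ckap2, a spindle protein (chr8:22168160-22185819), was at 43.0, 53 and 44.9 CPM against 72.5, 76.1 and 76.7 CPM (−0.67 ± 0.12, adjusted p = 0.0494). These are 3 of 46 members of the G2 and M phase list in limma, while edgeR called 1 and DESeq2 called 28. All 46 values were negative against 50.7% of all genes, 39 lay wholly lower in the double lesion, where 11% of all genes did, and the median was −0.57. Members that did not pass in limma include Bub1 (−0.65 ± 0.13, adjusted p = 0.0761), Nuf2 (−0.76 ± 0.15, adjusted p = 0.0681) and Top2a (−0.66 ± 0.14, adjusted p = 0.0958). Of the genes next below the threshold with lower values, Kif22, a mitotic kinesin (−0.70 ± 0.13, adjusted p = 0.0656), is of this kind too, while Hist1h1e, a linker histone (−0.81 ± 0.15, adjusted p = 0.0513), and Gkn3 (−1.60 ± 0.31, adjusted p = 0.0710) are not. Double lesion 1 was the lowest of its group for 45 of the 46 genes. Without it the median was −0.41 and no member passed in limma; none passed without double lesion 2, without Tet2 KO 3 or without a filter on low values either, and 15 passed without Tet2 KO 2. The sex term left 1 call and a median of −0.52. S phase genes were closer to 0 (median −0.13, 29 of 37 negative), and none passed in limma or edgeR, 8 having an unadjusted p under 0.05.

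Ribosomal protein and respiratory chain genes were shifted by a small amount with no call. Of 78 cytosolic ribosomal protein genes, 76 had negative values (median −0.28). Of 73 nuclear-encoded respiratory chain genes, 72 did (median −0.26). Over all genes, 50.7% of values were negative. In the double lesion 44 of the ribosomal and 34 of the respiratory genes lay wholly lower, where 11% of all genes did. None passed in limma or edgeR, and DESeq2 called 1 and 0. An unadjusted limma p under 0.05 was reached by 39 and 30, all lower, where 14.7% of all genes reached it in either direction. Rps2 was at 743, 862 and 801 CPM in the double lesion and 977, 1252 and 1068 CPM in Tet2 KO (−0.45 ± 0.11, adjusted p = 0.143), and Sdhb, a subunit of succinate dehydrogenase, at 205, 242 and 229 against 262, 328 and 294 CPM (−0.38 ± 0.11, adjusted p = 0.194). Tet2 KO 2 was the highest of its group for 76 of the ribosomal and 63 of the respiratory genes, and without it the medians were −0.15 in both lists. Double lesion 1 was the lowest of its group for 77 and 69 of them, and without it the medians were −0.22 and −0.20. Tet2 KO 1 was the lowest of its group for 57 and 61, and without it the medians were −0.35 in both lists. Rescaling the columns to equal totals moved the medians to −0.24 and −0.22.

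**Figure D4:**
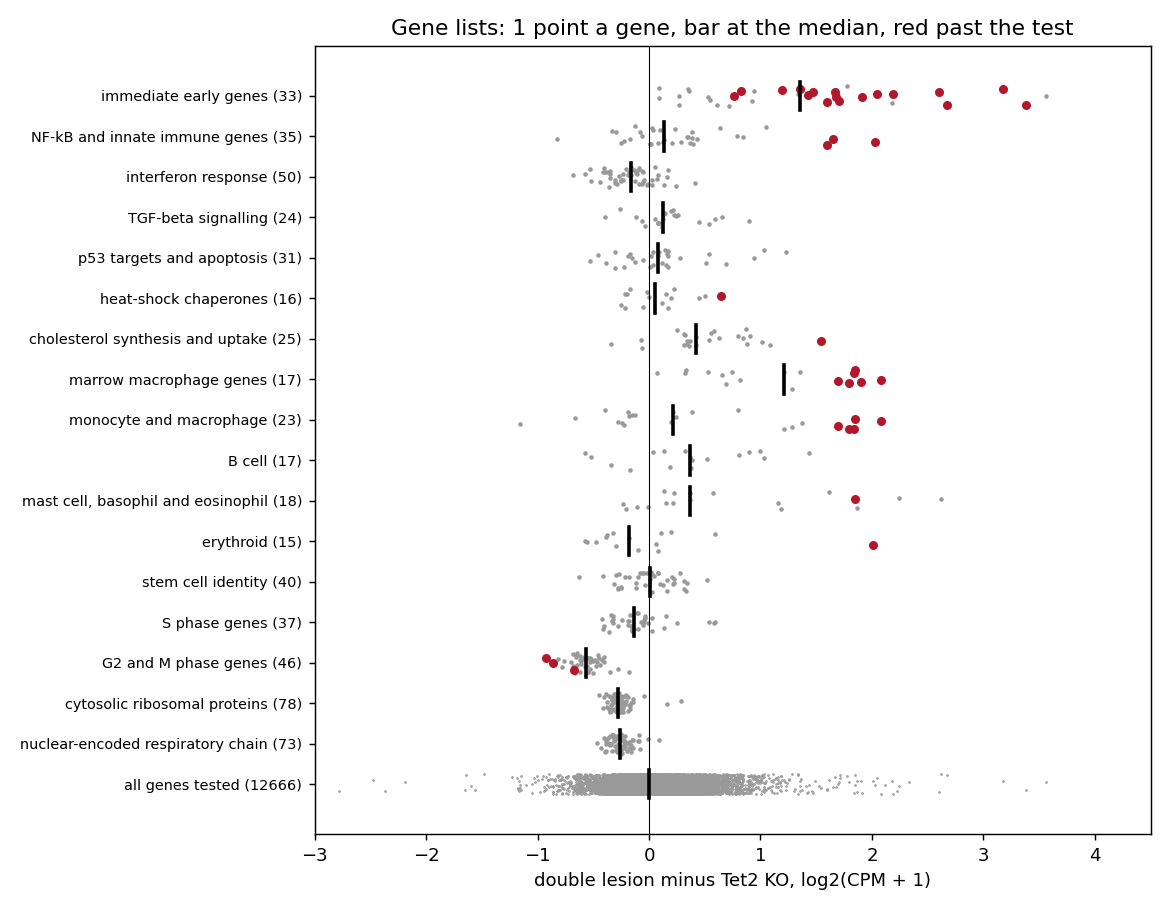
Each point is a gene placed by its difference, double lesion minus Tet2 KO on the log2(CPM + 1) scale, in 17 gene lists and over all genes tested, with a black bar at the median and genes past the limma test in red (not marked in the last line). The immediate early list (median 1.36) lies to the right of 0, the G2 and M phase list (median −0.57) lies wholly to the left, and the stem cell list is centred near 0.

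Lists on stem cell identity and on the 2 epigenetic pathways held no call. Of 40 stem cell genes none passed in limma or edgeR (3 with an unadjusted p under 0.05), and the median was 0.01. Hoxa9 was at 0.34 ± 0.13 (adjusted p = 0.269) and Hlf at 0.33 ± 0.19 (adjusted p = 0.449). Among 17 genes that write, read or erase methylation by Polycomb the median was 0.02, with the methylase Ezh2 at −0.35 ± 0.12 (adjusted p = 0.249). Among 14 DNA methylation enzymes it was 0.02, with Dnmt3b at 0.51 ± 0.20 (adjusted p = 0.285) and Uhrf1 at 0.59 ± 0.17 (adjusted p = 0.199). In all, 24 of 36 lists held no call in limma or edgeR, DESeq2 called 21 members in 15 of the 24, and 177 list members there had an unadjusted p under 0.05. They include the p53, TGF-beta, MHC class II, cytokine receptor, Hox, MYC target, cohesin, myeloid, lymphoid and megakaryocyte lists, with medians from −0.19 to 0.22. Their members with small p-values included H2-Aa, an MHC class II chain, at 204, 189 and 153 CPM against 135, 117 and 94.9 CPM (0.65 ± 0.15, adjusted p = 0.115). Plk3, a stress-responsive kinase of the p53 list, was at 1.23 ± 0.30 (adjusted p = 0.132), and the TGF-beta inhibitor Skil at 0.66 ± 0.19 (adjusted p = 0.199). Atf4, the effector of the integrated stress response, was at 222, 220 and 218 CPM against 111, 164 and 141 CPM (0.68 ± 0.13, adjusted p = 0.0757). Other members of its list went both ways without passing. Trib3 was at 0.96 ± 0.26 (adjusted p = 0.176), with the groups apart, and the Atf4 target Asns at −0.60 ± 0.18 (adjusted p = 0.208), with the groups overlapping. Of the 22 genes tested in that list 8 had positive values, and the median was −0.17. Replication-dependent histone genes had a median of 0.07 and 1 call of 37, Hist1h1c, and the adhesion list held Vcam1 and Rgs1 as its calls among 25 genes.

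The transgene was also compared without Tet2 loss, as KDM6B OE minus Vav Cre, in libraries that do not overlap with the 6 above. Those groups differ in Cre as well, since the KDM6B OE label names none. Sex is unequal there too. Genes of the Y chromosome had a mean of 62.6 CPM in Vav Cre 1 and 0.308 to 0.355 CPM in Vav Cre 2 and 3. In KDM6B OE 1, 2 and 3 the mean was 0.0615 to 0.283 CPM. All 53 genes had the same sign there, against 69.7% of all genes, and 27 were also called in a fit of all 12 libraries, which is 50.9% of the 53 and 34.6% of the 78 called in that comparison (68 higher, 0.521% of genes, and 10 lower, 0.0767%). The 53 come from the fit of 6 libraries; in the fit of 12, double lesion minus Tet2 KO had 28 calls, of which 21 were shared, or 75% of the 28 and 26.9% of the 78. The median of the 47 higher genes was 1.60 here and 1.34 there, and that of the 6 lower genes −0.94 here and −0.59 there. The 53 were selected by their test here, which favours large values here. These medians therefore cannot show which comparison has the larger differences. Egr1 was almost equal in both (3.39 here, 3.34 ± 0.39 there), as was Ier2 (1.47 and 1.57 ± 0.17). Fmnl3 was at 2.34 here and 1.07 ± 0.42 there (adjusted p = 0.171), and Cotl1 at −2.78 here and −1.19 ± 0.71 there (adjusted p = 0.348). The difference between the comparisons, tested as an interaction on all 12 libraries, passed for none of 13046 genes in limma. An unadjusted p under 0.05 was found for 578 genes (4.43%), and the smallest adjusted p was 0.753. Among the 53 genes, Alas2 (interaction 1.20 ± 0.51, unadjusted p = 0.0330) and the gene model Gm20199 (0.96 ± 0.31, unadjusted p = 0.0076) were the only ones under 0.05 before adjustment. The interaction of Egr1 was 0.05 ± 0.55, and that of Cotl1 −1.59 ± 1.01.

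**Figure D5:**
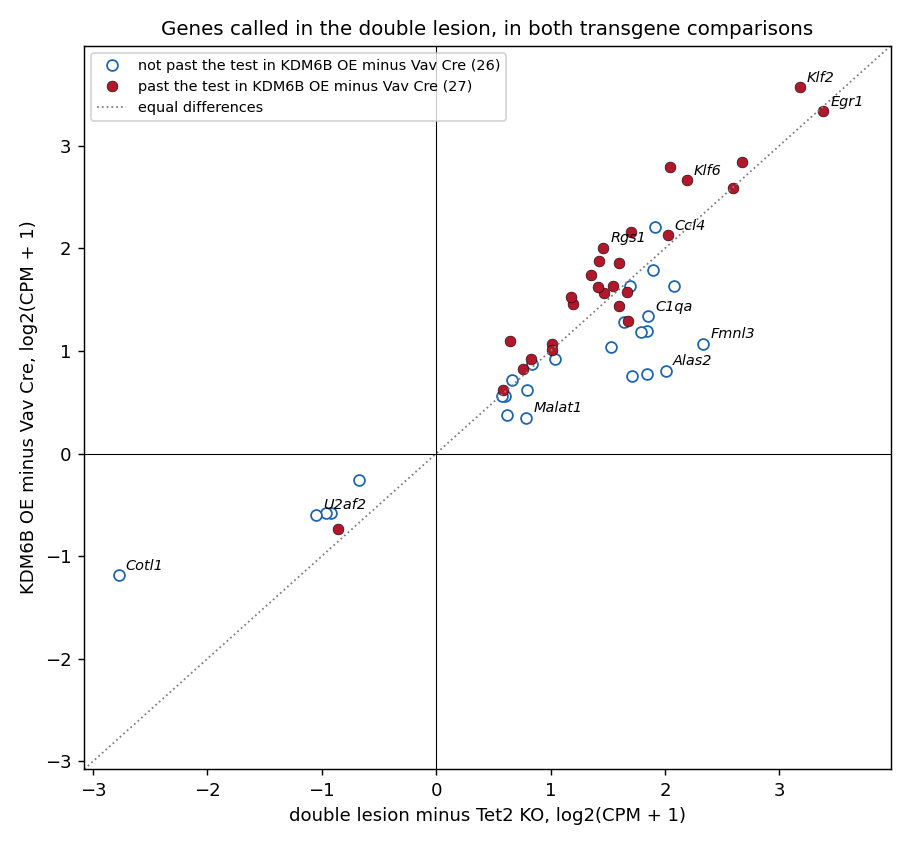
Each of the 53 called genes is placed by its difference with Tet2 loss, double lesion minus Tet2 KO (horizontal axis), and without it, KDM6B OE minus Vav Cre (vertical axis), both on the log2(CPM + 1) scale; filled red points (27) passed in KDM6B OE minus Vav Cre in the fit of all 12 libraries. All points lie in the quadrants of equal sign, and Fmnl3, Alas2 and Cotl1 lie nearer to 0 on the vertical axis than on the horizontal one.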

How the data were processed

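RNA of sorted LSK cells was sequenced by the authors as SMARTer v4 and Nextera libraries from 10 to 20 ng of total RNA, per the labels' protocols. The submitters' processing notes name mouse build mm10, edgeR 3.8.6, HTSeq 0.6.0 and TopHat2 2.0.10; the gene models used and whether HTSeq counted by strand are not known here. Gene coordinates are from the GENCODE annotation of GRCm38. The deposited values are a signal, whole reads divided by an effective library size, so column totals differ (947374 to 1015813); 100% of values gave back whole reads within 1e-06. They are called CPM here; the planned test was kept.

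Genes with CPM above 1 in at least 3 of the 6 libraries were kept (12666 of 15366, 2700 set aside). limma 3.58.1 in R 4.3.3 was fitted to log2(CPM + 1) with a mean trend, 1 mean per group and 4 residual degrees of freedom, with Benjamini-Hochberg adjustment over all genes. This scale understates changes of low genes. Replicates differed by more than counting noise (chi-square per gene 18.3 to 58.4). A listed 0 allows up to 3 reads, 0.112 to 0.139 CPM, which covers counting error only. The alternatives used edgeR 4.0.16 and DESeq2 1.42.0 on recovered reads, other filters, pseudocounts and scalings, a sex term, array weights, a replicate block and single libraries left out.

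The comparison, the 34 gene lists and the named genes were chosen with earlier results of these data known, and 2 lists were added later; lists have no test. Named were the targets, up to 12 called genes a direction by size with a mean of at least 5 CPM, where fewer passed, those with the smallest p, and in each list the 2 smallest p-values a direction and up to 6 called genes; the remaining called genes, Lyz2, Csf1r, Kit, Ly6a, Jchain, Prg2 and other members were named after their values were seen. On simulated data of 12666 genes for this comparison, limma recovered 26%, 60%, 94% and 98% of genes changed 1.5-, 2-, 4- and 8-fold, with 10 false calls. Some genes are not reported here.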

Additional observations from a re-analysis of the deposited data

How the results depend on the processing

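The count of 53 genes stayed within 1.5 times under 7 alternatives (45 to 56), the sex term among them (52, of which 42 were shared). It was 10 without a filter, which tests 15366 genes, 28 with all 12 libraries in the fit, 118 with the replicate block, 151 with array weights and 350 in DESeq2. Leaving out 1 library gave 16 (without double lesion 2) to 104 (without Tet2 KO 2). The sex term together with leaving out Tet2 KO 2, chosen after seeing the data, gave 295. The cause was not tested. The share of higher calls was 88.7% in limma, 91.1% at equal totals, 88.5% after centring and 66.9% in DESeq2. With the replicate block the G2 and M phase list had 15 calls and the immediate early list 22. Whether the replicate numbers pair the samples was not settled. Deviations of libraries with the same number correlated at 0.399, 0.13 and −0.113, and double lesion 2 correlated best with Tet2 KO 3. The highest value, 0.399, was that of double lesion 1 and Tet2 KO 1. Both carry a Y chromosome, so pairing and sex cannot be told apart there. The interaction stayed at 0 calls under the pseudocount, no filter, equal totals, replicate block, sex term and each of the 12 left-out libraries, and the smallest adjusted p in any of them was 0.112. Tet2 and Kdm6b did not pass in any alternative, and kept a positive difference.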
